A study of Mus musculus with 221 samples.

Results

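Genes of cholesterol synthesis and its control, Hmgcs1, Idi1, Fdft1, Sqle, Dhcr7, Insig1 and Srebf2, were followed through single cells of the embryonic mouse neocortex. They were taken by name from the expression table, where they are 7 of 23244 features. All 7 were above the detection floor in at least 94 of the 221 cells, and all 7 passed the filter on low values, which kept 10705 features. None of the 7 is an uptake receptor, so the uptake of sterol from outside the cell is described from a separate list of receptors and endosomal genes.

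Cholesterol is built from acetyl-CoA through mevalonate, farnesyl diphosphate and squalene, and the brain makes its own because lipoprotein cholesterol does not cross the blood-brain barrier. Most enzymes of the route are switched on together by SREBP2, the product of Srebf2, a membrane-bound transcription factor that is carried from the endoplasmic reticulum to the Golgi and cut there when membranes are low in sterol. INSIG proteins hold it back when sterol is plentiful. Growing neurons and dividing progenitors both need sterol for new membrane, and after birth astrocytes take over much of the supply to neurons.

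The study microdissected medial neocortex from C57BL/6J embryos at E18.5 and pooled 8 neocortices for each of 2 cell suspensions. Pool 2 gave 99 of the 221 cells and pool 1 the others, captured in a microfluidic chip and sequenced as full-length cDNA. The title of the study is about Hopx-dependent basal radial glia. No cell was treated, so the comparisons are between classes of cells within the same pools, with n = 2 pools.

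Cells were grouped by Ward clustering of 60 marker genes, none of them a cholesterol gene, and a class is written with "-like" because it rests on transcripts alone. Progenitor-like cells numbered 36 (20 in pool 1 and 16 in pool 2), of which 17 were radial glia-like and 19 intermediate progenitor-like. Interneuron-like cells numbered 29 (16 and 13), and excitatory neuron-like cells 147 (78 and 69). A further 9 cells in clusters without a name entered no comparison. Genes above the floor numbered a median of 4636.5 in progenitor-like, 3468 in interneuron-like and 4033 in excitatory neuron-like cells. The read depth is unknown.

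The classes are shown on defining genes that were among the clustering markers, so these counts describe the labels and do not test them. Pax6, a transcription factor of radial glia, was above the floor in 32 of 36 progenitor-like, 7 of 29 interneuron-like and 31 of 147 excitatory neuron-like cells. Gad2, a GABA-synthesizing enzyme of interneurons, was above the floor in 0 of 36 progenitor-like, 22 of 29 interneuron-like and 5 of 147 excitatory neuron-like cells. Neurod6, a transcription factor of excitatory neurons, was above the floor in 35 of 36 progenitor-like cells at a median of 710.0 TPM, in 26 of 29 interneuron-like cells at 176 TPM and in all 147 excitatory neuron-like cells at 1750.0 TPM. The progenitor-like class thus carried a transcript of neurons. Results without progenitor-like cells with at least 100 TPM of Neurod6, which leaves 1 progenitor-like profile of 7 cells from pool 2, are given beside the main ones.

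The sequences before the transcription start are shown because the members are known as SREBP2 targets. RefSeq promoters (GRCm38.p6) were matched for 5 of the 7 members, without Sqle and Fdft1. The 250 bases before the start of Hmgcs1 and Idi1, the members with a matched promoter that differed between classes, and of Srebf2, the regulator, are printed 5′ to 3′ on the gene's strand. Capitals mark 3 motifs searched on both strands: the sterol regulatory element TCACNCCAC bound by SREBP, the NF-Y box CCAAT and the Sp1 box GGGCGG, whose factors are known to act beside SREBP. The capitals read ATTGG or CCGCCC where a box lies on the opposite strand, and no match overlapped another motif.
Hmgcs1, chr13:119690101-119690350, plus strand: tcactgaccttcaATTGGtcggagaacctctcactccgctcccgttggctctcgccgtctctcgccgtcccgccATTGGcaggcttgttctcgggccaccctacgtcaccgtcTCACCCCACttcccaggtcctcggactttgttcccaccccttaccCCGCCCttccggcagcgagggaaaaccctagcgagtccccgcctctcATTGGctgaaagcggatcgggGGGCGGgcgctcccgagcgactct
Idi1, chr13:8885356-8885605, plus strand: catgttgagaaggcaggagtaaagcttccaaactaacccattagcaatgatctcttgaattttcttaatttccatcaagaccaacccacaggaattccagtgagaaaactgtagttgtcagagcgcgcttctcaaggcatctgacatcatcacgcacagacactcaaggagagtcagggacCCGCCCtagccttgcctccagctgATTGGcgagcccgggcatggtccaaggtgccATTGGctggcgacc
Srebf2, chr15:82147019-82147268, plus strand: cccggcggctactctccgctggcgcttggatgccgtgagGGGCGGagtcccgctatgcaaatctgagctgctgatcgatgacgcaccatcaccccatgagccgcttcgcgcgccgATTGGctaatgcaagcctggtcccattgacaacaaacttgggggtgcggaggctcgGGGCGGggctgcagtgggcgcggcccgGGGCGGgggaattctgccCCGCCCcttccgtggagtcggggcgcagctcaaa
The Hmgcs1 window held the sterol regulatory element from base -137 to -129, counted back from the start, together with 3 NF-Y boxes and 2 Sp1 boxes. The Idi1 window held 2 NF-Y boxes and 1 Sp1 box, and the Srebf2 window 1 NF-Y box and 4 Sp1 boxes. The sterol regulatory element in these letters occurred in 1.05% of 32851 promoters, the NF-Y box in 33.8% and the Sp1 box in 32.7%. A match describes letters, and its absence says only that these letters are not in this window.

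The clearest result was a lower level of 4 enzymes in interneuron-like than in progenitor-like cells. Hmgcs1, Idi1, Fdft1 and Sqle were all higher in progenitor-like cells, by log2 differences of 2.05 to 3.33. Against excitatory neuron-like cells, Fdft1 alone passed the test as lower in interneuron-like cells. No member passed the test between progenitor-like and excitatory neuron-like cells. Differences are of the mean log2(TPM + 1) of a class in a pool, where TPM is a transcript's share of a cell's total per length, and each is given with its standard error (SE) and an adjusted p from limma. A feature passed at a Benjamini-Hochberg adjusted p below 0.05 over all 10705 features together with a log2 difference of 1 or more, up or down. TPM are shares, so a lower value can also come from a rise of other transcripts. None of the 4 enzymes passed against interneuron-like cells with intermediate progenitor-like cells alone, or on the log2 of the mean TPM. Nor did any among cells with 3500 to 5500 genes above the floor, a window that kept 13 of the 29 interneuron-like cells.

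Hmgcs1 (chr13:119690351-119708260) encodes cytosolic HMG-CoA synthase, an early enzyme of the mevalonate part of the route. Its TPM ran over a low, median and high of 2.05, 331 and 1210.0 in progenitor-like cells, 1.76, 115.7 and 812 in interneuron-like cells, and 1.76, 243 and 1476 in excitatory neuron-like cells. The classes overlapped cell by cell, but their pool means did not between progenitor-like (8.12 in pool 1 and 7.49 in pool 2, log2 scale) and interneuron-like cells (5.44 and 5.47). The difference was 2.35 ± 0.45 (SE, n = 2 pools each, limma adjusted p = 0.0147). It was above the floor in 34 of 36 progenitor-like, 21 of 29 interneuron-like and 140 of 147 excitatory neuron-like cells.

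Idi1 (chr13:8885606-8892396) encodes isopentenyl-diphosphate isomerase, which prepares the isoprene units that are joined to farnesyl diphosphate. Its TPM ran over a low, median and high of 1.40, 164 and 1533 in progenitor-like cells, 1.66, 2.09 and 581 in interneuron-like cells, and 1.33, 105.7 and 750.1 in excitatory neuron-like cells. The median interneuron-like cell was at its floor. Idi1 was above the floor in 83.3% of progenitor-like cells (30 of 36), in 34.5% of interneuron-like cells (10 of 29) and in 70.7% of excitatory neuron-like cells. The pool means were 7.03 and 6.28 in progenitor-like cells and 2.39 and 4.26 in interneuron-like cells, which do not overlap but lie unevenly apart. The difference was 3.33 ± 0.65 (SE, n = 2 pools each, limma adjusted p = 0.0154), made of 4.64 in pool 1 and 2.02 in pool 2.

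Fdft1 (chr14:63145150-63181687) encodes squalene synthase, the first enzyme committed to sterols. It was above the floor in 34 of 36 progenitor-like and 21 of 29 interneuron-like cells, the same numbers as Hmgcs1, and in 143 of 147 excitatory neuron-like cells, the most of the 7 members. Its TPM ran over a low, median and high of 1.62, 277 and 916 in progenitor-like cells, 1.81, 125 and 544 in interneuron-like cells, and 1.70, 446 and 1097 in excitatory neuron-like cells. Unlike the other 3 enzymes it had its highest pool means in excitatory neuron-like cells, 8.23 and 8.33, against 8.02 and 7.28 in progenitor-like and 5.47 and 5.74 in interneuron-like cells. Progenitor-like cells were 2.05 ± 0.42 above interneuron-like cells (limma adjusted p = 0.0185), and interneuron-like cells differed by -2.67 ± 0.42 from excitatory neuron-like cells (limma adjusted p = 0.0194).

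Sqle (chr15:59315092-59331193) encodes squalene epoxidase, a control point of the route after squalene has been made. Its TPM ran over a low, median and high of 1.68, 157.5 and 1028 in progenitor-like cells, 1.66, 2.09 and 501 in interneuron-like cells, and 1.55, 205 and 921 in excitatory neuron-like cells. Sqle exceeded the floor in 33 of 36 progenitor-like, 12 of 29 interneuron-like and 120 of 147 excitatory neuron-like cells. The pool means of 6.54 and 6.99 in progenitor-like cells lay well above 3.68 and 4.25 in interneuron-like cells. The difference was 2.80 ± 0.48 (limma adjusted p = 0.00973), with 2.86 in pool 1 and 2.74 in pool 2.

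Dhcr7 (chr7:143823167-143848410) encodes the reductase of the last step, which turns 7-dehydrocholesterol into cholesterol. It was above the floor in 14 of 36 progenitor-like, 11 of 29 interneuron-like and 64 of 147 excitatory neuron-like cells, and fewer than 50% of the cells of each class showed it. Its TPM ran over a low, median and high of 1.40, 1.87 and 292 in progenitor-like cells, 1.66, 2.12 and 212 in interneuron-like cells, and 1.33, 2.03 and 252 in excitatory neuron-like cells. It passed in no comparison, and progenitor-like minus interneuron-like cells gave -0.16 ± 0.45 (95% interval -1.14 to 0.82, limma adjusted p = 0.864).

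Insig1 (chr5:28071412-28078662) encodes the sterol sensor that keeps SREBP2 in the endoplasmic reticulum and is itself a target of SREBP2. Its TPM ran over a low, median and high of 1.60, 63.5 and 338 in progenitor-like cells, 1.66, 2.06 and 174 in interneuron-like cells, and 1.48, 3.27 and 438.5 in excitatory neuron-like cells. Among progenitor-like cells the pools stood apart, with 9 of 20 cells above the floor in pool 1 and 15 of 16 in pool 2, and among radial glia-like cells 4 of 9 and 8 of 8. Progenitor-like minus interneuron-like cells gave 1.95 ± 0.68 (limma adjusted p = 0.107), with 0.89 in pool 1 and 3.0 in pool 2, and did not pass. With 1 suspension a pool, the animals and the preparation of a pool cannot be told apart.

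Srebf2 (chr15:82147269-82205379), the transcription factor gene itself, was the lowest of the 7 in its highest cell, at 96.2 TPM in progenitor-like, 78.5 TPM in interneuron-like and 111.5 TPM in excitatory neuron-like cells. Srebf2 exceeded the floor in 23 of 36 progenitor-like, 10 of 29 interneuron-like and 86 of 147 excitatory neuron-like cells. Progenitor-like minus interneuron-like cells gave 0.71 ± 0.44 (95% interval -0.25 to 1.68, limma adjusted p = 0.352).

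**Figure D1:**
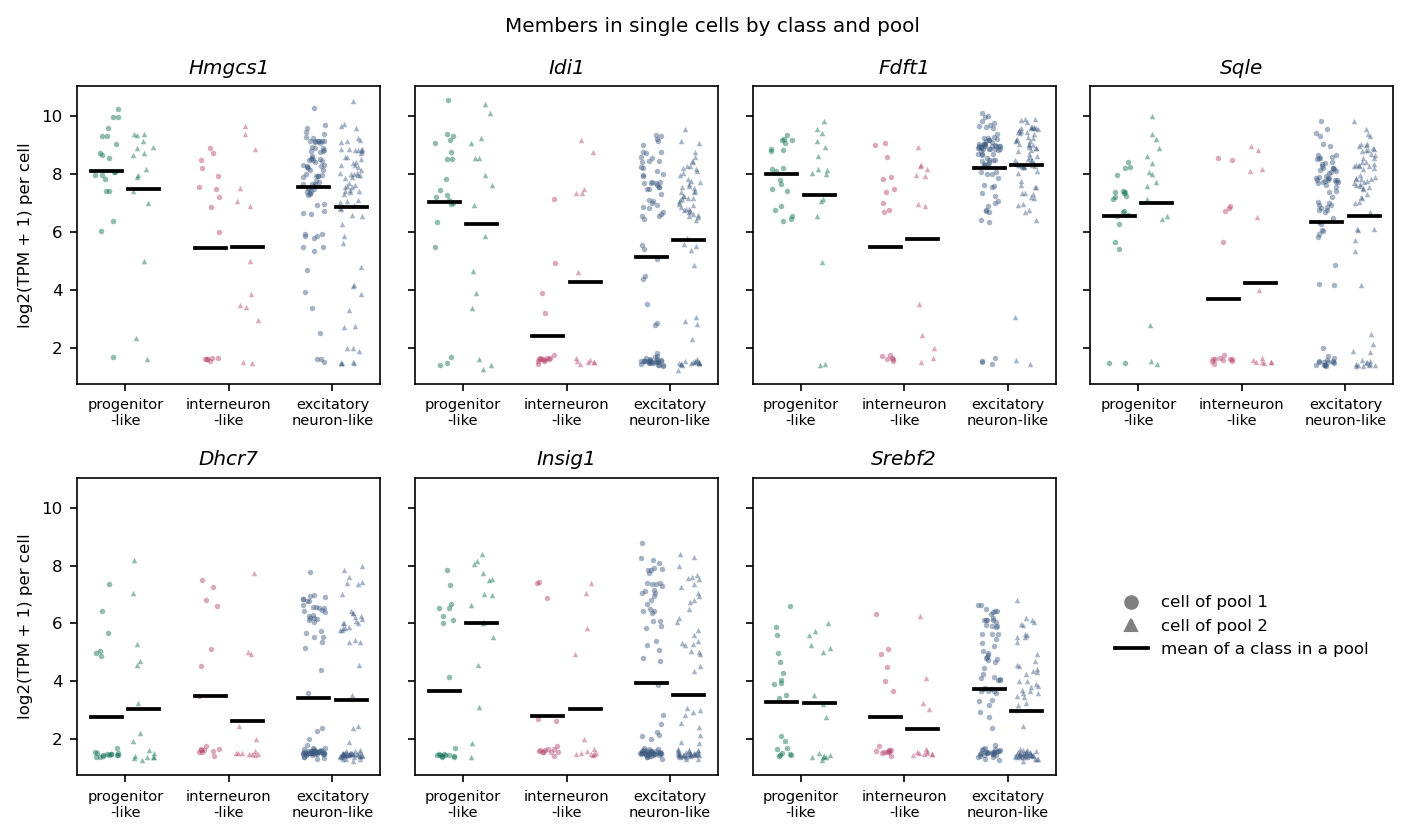
Each point is a cell of pool 1 (circle) or pool 2 (triangle), its height the log2(TPM + 1) of the member named above the panel, and bars are the mean of a class in a pool. In interneuron-like cells the points of Idi1 and Sqle gather at the floor, with 10 and 12 of 29 cells above it, against 30 and 33 of 36 progenitor-like cells.

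**Figure D2:**
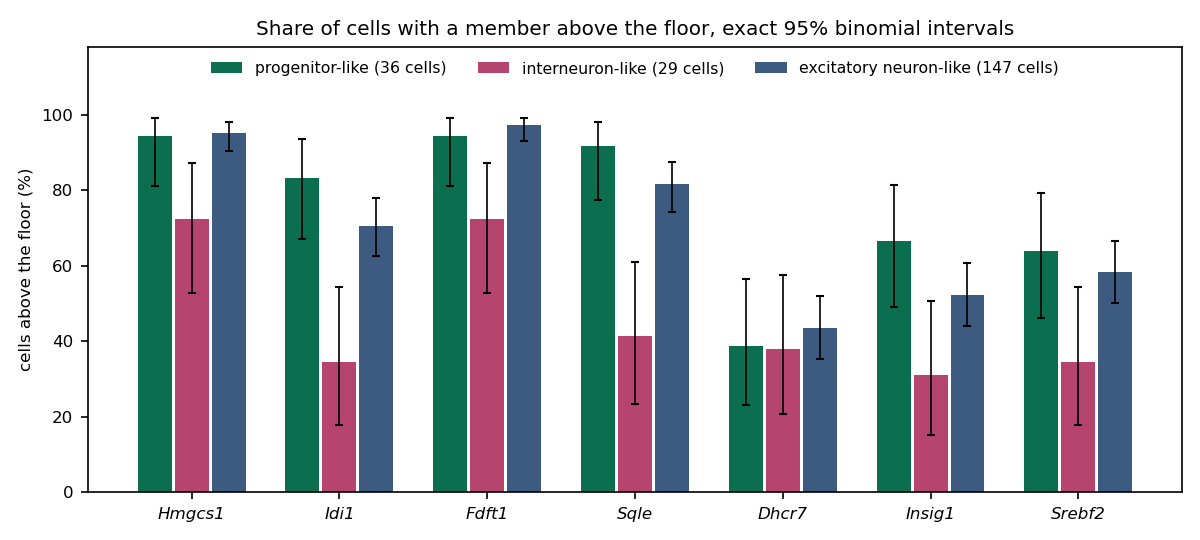
Bars give the percent of cells above the floor per member and class, with exact (Clopper-Pearson) 95% binomial intervals that cover counting error only. The interneuron-like share is 41.4% for Sqle and 34.5% for Idi1, against 91.7% and 83.3% in progenitor-like cells, while the 3 shares of Dhcr7 lie between 37.9% and 43.5%.

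Set against the table as a whole, 4 of the 7 members were higher in progenitor-like than in interneuron-like cells where 5.32% of the 10705 features tested were. The median log2 difference was 2.05 over the members and 0.12 over all features. Progenitor-like cells had more genes above the floor, and over the 3908 features above the floor in at least 94 cells, the minimum of the members, the median was 0.28 and 9.06% passed in either direction. The members' differences stood at the 97.1 to 99.7 percentile of the tested features for the 4 that passed, and at 96.5 for Insig1, 77.2 for Srebf2 and 31 for Dhcr7. The members were chosen with earlier results of these data known, so these comparisons with all features are a description. Leaving out a progenitor-like profile, with the remaining one assumed to vary like the other classes, changed calls. Without pool 1 of the progenitor-like class Sqle still passed and Insig1 passed at 3.13 (limma adjusted p = 0.0272), while Hmgcs1 at 2.04 (0.0707), Fdft1 at 1.68 (0.0826) and Idi1 at 2.96 (0.0874) did not. Without pool 2 Hmgcs1 and Fdft1 passed, while Sqle at 2.58 (limma adjusted p = 0.0514) and Idi1 at 3.71 (0.0545) did not. All 4 passed without either interneuron-like profile.

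All 7 members had lower means in interneuron-like than in excitatory neuron-like cells, and 1 of them, Fdft1, passed as lower, where 0.234% of features did. Sqle gave -2.48 ± 0.48 (limma adjusted p = 0.0512), Idi1 -2.09 ± 0.65 (0.268), Hmgcs1 -1.74 ± 0.45 (0.16), Insig1 -0.83 ± 0.68 (0.776), Srebf2 -0.80 ± 0.44 (0.624) and Dhcr7 -0.33 ± 0.45 (0.876). The pool means of these 2 classes did not overlap for 6 of the 7 members, all but Dhcr7, and lay lower without overlap for 28.2% of all features. The members' median was -1.74, and that of all features -0.06. Of all features 43.4% had a higher mean in interneuron-like cells. Over the 3908 features above the floor in at least 94 cells the median was -0.27, and 0.64% passed in either direction. With the pool as a block, Sqle also passed (limma adjusted p = 0.0409). Without either excitatory neuron-like profile no feature of the 10705 passed (365 and 450 at an unadjusted limma p below 0.05), and Fdft1 then gave -2.73 and -2.62 (limma adjusted p = 0.32 and 0.40). Both comparisons with interneuron-like cells share their profiles, so these values are not independent of those against progenitor-like cells.

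Between progenitor-like and excitatory neuron-like cells 0 of the 7 members passed in limma, where 3.38% of features did in either direction. None of the 7 had an unadjusted limma p below 0.05, while 1953 of the 10705 features did. Idi1 gave 1.24 ± 0.65 (95% interval -0.17 to 2.66, limma adjusted p = 0.341), Insig1 1.12 ± 0.68 (-0.38 to 2.61), Hmgcs1 0.61 ± 0.45 (-0.38 to 1.60) and Sqle 0.32 ± 0.48 (-0.74 to 1.37). Fdft1 gave -0.63 ± 0.42 (-1.56 to 0.30), Dhcr7 -0.49 ± 0.45 (-1.48 to 0.49) and Srebf2 -0.09 ± 0.44 (-1.06 to 0.88). The intervals reach past 1 above 0 for Hmgcs1, Sqle, Idi1 and Insig1 and past 1 below 0 for Fdft1, Dhcr7 and Srebf2, so a like level in both classes is not shown. Insig1 gave -0.26 in pool 1 and 2.49 in pool 2. Without progenitor-like cells with at least 100 TPM of Neurod6 Insig1 gave 3.83, from 1 progenitor-like profile of pool 2, the pool in which it was high.

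Within the progenitor-like class, all 7 members had higher means in radial glia-like than in intermediate progenitor-like cells. In limma 0 passed, where 1.24% of features did. An unadjusted limma p below 0.05 was reached by 5 members and by 1677 of the 10705 features. Idi1 had 8.59 and 7.24 in the pools of radial glia-like cells, against 5.75 and 5.33 in intermediate progenitor-like cells, a difference of 2.38 ± 0.72 (limma adjusted p = 0.143). Hmgcs1 had 9.02 and 8.18 in radial glia-like cells, against 7.38 and 6.81 in intermediate progenitor-like cells, a difference of 1.51 ± 0.50 (limma adjusted p = 0.172). The other differences were 1.42 for Sqle, 1.40 for Dhcr7, 1.28 for Fdft1, 1.25 for Insig1 and 0.44 for Srebf2, with pool means that did not overlap except for Insig1. Pool means lay higher without overlap for 14.9% of all features. The members' median was 1.40, and that of all features -0.11. Of all features 41.5% had a higher mean in radial glia-like cells. This comparison was added after the values had been seen.

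**Figure D3:**
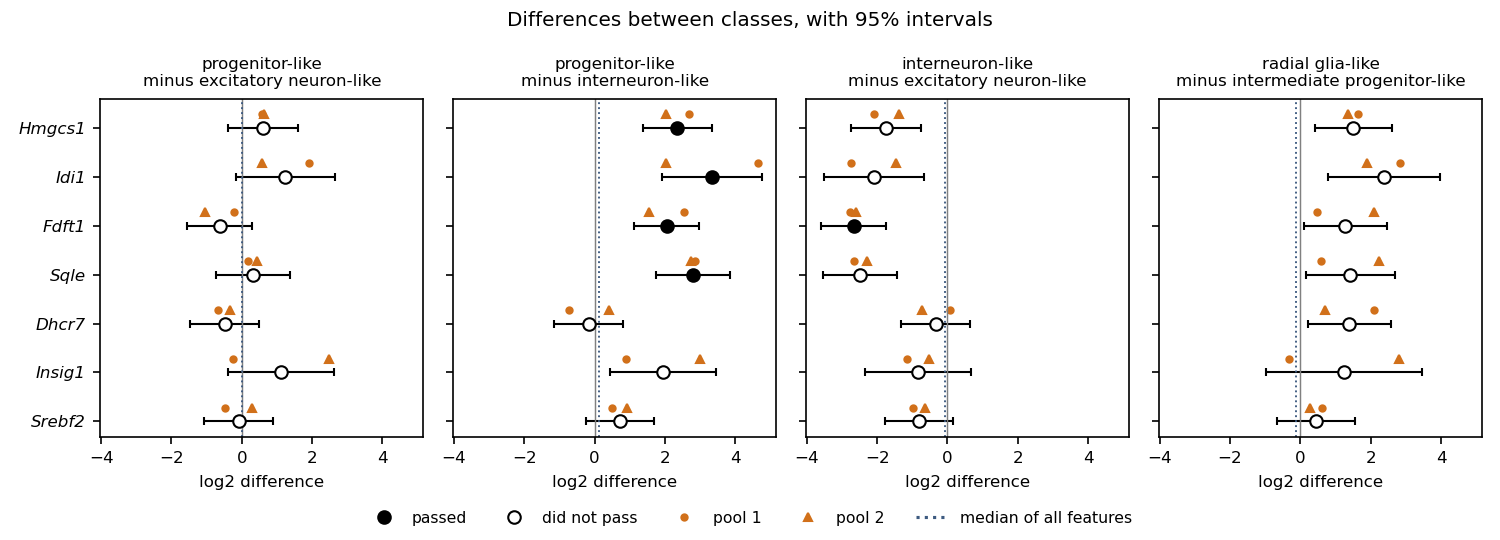
Black points are log2 differences of class means with 95% intervals (filled where the member passed), orange marks the same difference in pool 1 (circle) and pool 2 (triangle), and the dotted line the median of all features. Of the 7 members, 4 are filled for progenitor-like minus interneuron-like cells, Fdft1 alone for interneuron-like minus excitatory neuron-like cells, and none in the outer panels.

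Taken alone against interneuron-like cells, radial glia-like cells gave 3.15 for Hmgcs1, 3.53 for Sqle, 2.70 for Fdft1 and 4.59 for Idi1. All of these passed in limma. The share of all features passing with radial glia-like cells alone is not given, so these calls have no background beside them. Intermediate progenitor-like cells alone gave 1.64, 2.10, 1.41 and 2.21 for the same genes, and none passed (limma adjusted p = 0.0992, 0.068, 0.184 and 0.114). Summed over the 7 members, with values at the floor counted as 0, the median cell held 1840.0 TPM among radial glia-like, 797 among intermediate progenitor-like, 456 among interneuron-like and 1110.0 among excitatory neuron-like cells.

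Interneuron-like cells held fewer members above the floor per cell, and features in general were also detected less often in this class. The median tested feature was above the floor in 36.1% of progenitor-like, 24.1% of interneuron-like and 29.3% of excitatory neuron-like cells. A median of 5.5 members was above the floor in progenitor-like, 3 in interneuron-like and 5 in excitatory neuron-like cells, and at most 2 members were above it in 2 of 36 progenitor-like, 8 of 29 interneuron-like and 4 of 147 excitatory neuron-like cells. Among cells above the floor the medians of Sqle were 167 TPM in 33 progenitor-like, 198 TPM in 12 interneuron-like and 228 TPM in 120 excitatory neuron-like cells. For Sqle these levels lie closer together than the class means, while for Dhcr7 they lie farther apart, at 31.4 TPM in progenitor-like, 33.6 TPM in interneuron-like and 71.4 TPM in excitatory neuron-like cells. The same medians for Fdft1 were 284 TPM in progenitor-like, 226 TPM in interneuron-like and 458 TPM in excitatory neuron-like cells. On the log2 of the mean TPM, which weighs cells at the floor less, the 4 differences between progenitor-like and interneuron-like cells were 1.17, 1.12, 0.98 and 2.93 for Hmgcs1, Sqle, Fdft1 and Idi1, and none passed (limma adjusted p = 0.0548, 0.198, 0.0525 and 0.118).

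The number of genes detected, the cell-name suffix and some stress transcripts moved with the classes. The members correlated with the log2 number of genes above the floor by a Pearson r of 0.16 to 0.37 over all 221 cells, which share pools and depth. In cells with 3500 to 5500 genes above the floor, progenitor-like minus interneuron-like cells gave 3.07 for Idi1, 2.16 for Sqle, 1.56 for Hmgcs1 and 0.42 for Fdft1. None passed (limma adjusted p = 0.0611, 0.0926, 0.163 and 0.748). This window was set after the values were seen. It kept 26 of 36 progenitor-like cells (15 in pool 1 and 11 in pool 2) and 13 of 29 interneuron-like cells (6 and 7). Cell names end in A or B, which the labels do not explain, and A took 26 of 36 progenitor-like, 11 of 29 interneuron-like and 78 of 147 excitatory neuron-like cells. With suffix A alone the differences between progenitor-like and interneuron-like cells were 1.03 for Hmgcs1, 3.71 for Sqle, 2.01 for Fdft1 and 4.37 for Idi1, and with suffix B alone 1.73, 3.44, 2.68 and 0.41. Some of these profiles hold very few cells. Suffix A had 12 and 14 progenitor-like cells in pools 1 and 2, against 3 and 8 interneuron-like cells, and suffix B had 8 and 2, against 13 and 5. The single-suffix values are therefore a description with no test. The part of the suffix in the other results was not tested. Of the 5 tested genes of dissociation stress, Fos and Egr1 were higher in progenitor-like than in interneuron-like cells (3.42 ± 0.76 and 3.26 ± 0.71, limma adjusted p = 0.0239 and 0.0217), and Fos also than in excitatory neuron-like cells (3.21 ± 0.76, 0.0447), a call that held in 6 of 16 tested alternatives. Against interneuron-like cells Jun gave 1.7 ± 0.53 (limma adjusted p = 0.0755), Junb 0.53 ± 0.29 (0.28) and Dusp1 -0.02 ± 0.56 (0.991), and none of these passed. The part of stress in the members' differences was not tested. Without progenitor-like cells with at least 100 TPM of Neurod6 the 4 members gave 3.05 to 4.24 against interneuron-like cells and Insig1 gave 4.66. The progenitor-like class is then 1 profile of 7 cells from pool 2, and the other classes alone set its spread, so these values are given without a call.

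**Figure D4:**
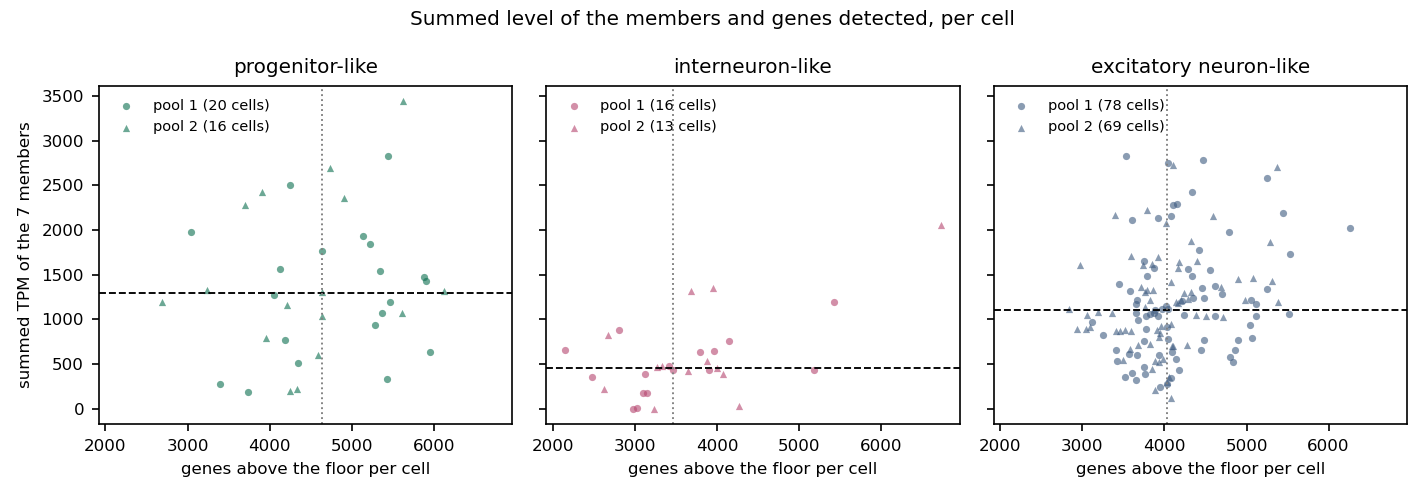
Each point is a cell of pool 1 (circle) or pool 2 (triangle), with genes above the floor on the horizontal axis and the summed TPM of the 7 members on the vertical axis, and lines mark the class medians. The dashed medians are 1290.0 TPM in progenitor-like, 456 TPM in interneuron-like and 1110.0 TPM in excitatory neuron-like cells, and the dotted ones 4636.5, 3468 and 4033 genes.

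Of 15 other cholesterol synthesis genes tested, 13 had a positive difference between progenitor-like and interneuron-like cells, with a median of 0.97. Of all features 57.8% were positive, with a median of 0.12, and 5.32% passed as higher. Over the 3908 features above the floor in at least 94 cells the median was 0.28. Sc5d, Sc4mol and Nsdhl passed as higher, and none as lower. Of 16 tested alternatives, Sc5d passed in 12, Sc4mol in 10 and Nsdhl in 7. Sc5d, which introduces a double bond into the sterol ring, gave 3.09 ± 0.58 (limma adjusted p = 0.014). It was above the floor in 30 of 36 progenitor-like and 14 of 29 interneuron-like cells. Sc4mol, the older symbol of Msmo1, which removes methyl groups from the ring, gave 2.27 ± 0.59 (0.0411 by limma), and Nsdhl, the dehydrogenase of the same demethylation, 1.65 ± 0.42 (0.0393). Sc4mol lay above the floor in all 17 radial glia-like cells, at a median of 869 TPM, and in 14 of 19 intermediate progenitor-like cells, at 97.3 TPM.

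With the 5 enzymes among the members, and without the sterol carrier Stard4, 19 enzymes are described. Ggps1 among them lies on a side branch of the route and makes no sterol. Of the 19, 17 had a positive difference between progenitor-like and interneuron-like cells, where 57.8% of all features did. Of the same 19, 7 passed as higher, where 5.32% of all features did, and the median was 1.07. Of these 7, 4 are the members counted above, and 3 are other enzymes. The members and gene lists were chosen with earlier results of these data known, so these counts are a description. Over the 3908 features above the floor in at least 94 cells, 9.06% passed in either direction. Lbr, a sterol reductase of the nuclear membrane, gave 1.41 ± 0.39 (limma adjusted p = 0.0529), Pmvk, phosphomevalonate kinase, 1.21 ± 0.53 (0.186) and Acat2, a cytosolic acetyl-CoA thiolase, 1.07 ± 0.46 (0.182). Between interneuron-like and excitatory neuron-like cells 17 of the 19 were negative with a median of -0.62, and Fdft1 was the enzyme that passed. Of all features 43.4% were positive in this comparison, with a median of -0.06, and 0.234% passed as lower. Between progenitor-like and excitatory neuron-like cells the median was 0.32 and none passed, the largest being Mvk, mevalonate kinase, at 1.55 ± 0.46 (limma adjusted p = 0.0926).

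**Figure D5:**
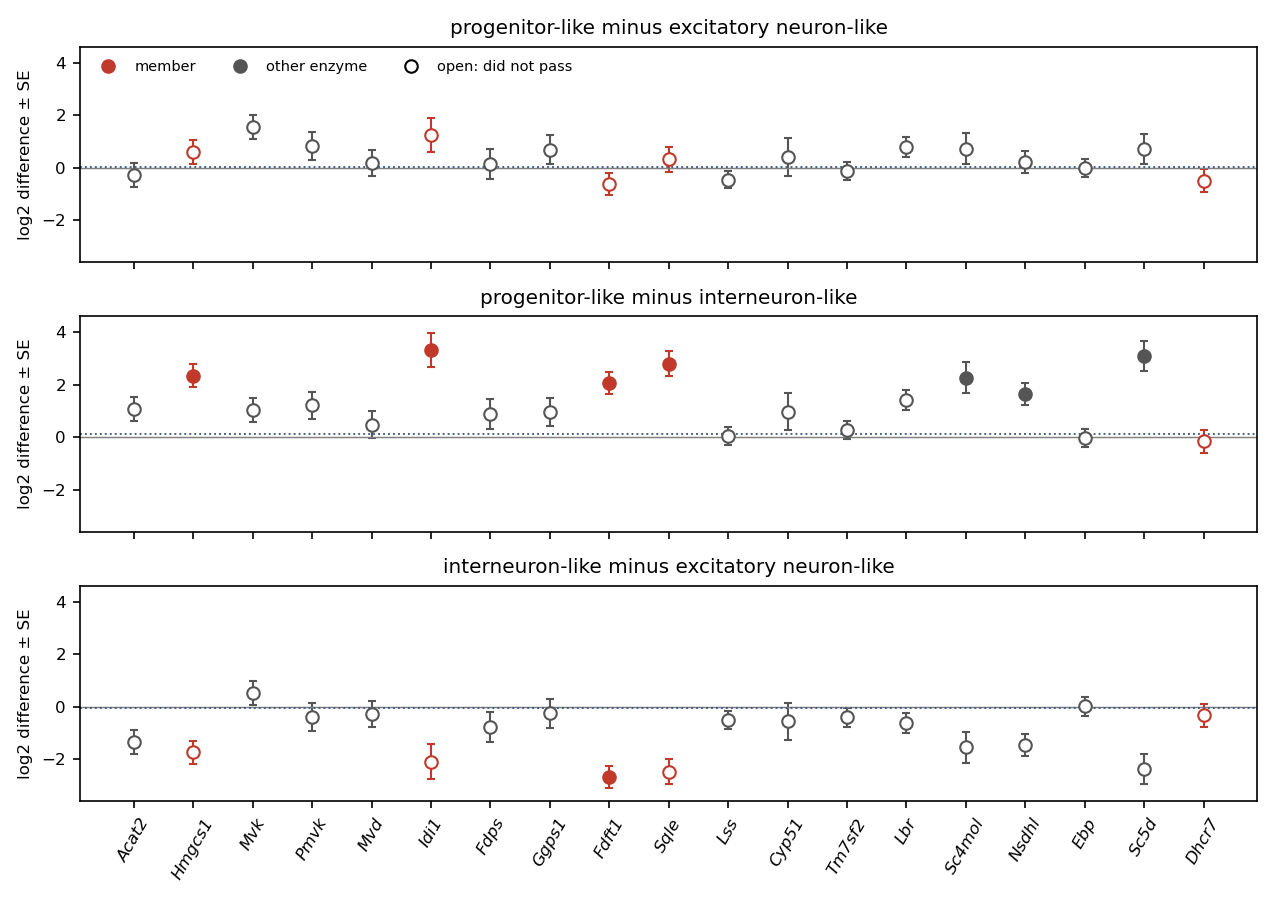
Points are log2 differences ± SE of 19 enzymes in the order of the route, with the side-branch enzyme Ggps1 placed after Fdps. Members are in red and others in grey, filled where they passed, with the median of all features dotted. In the middle panel 17 of 19 lie above 0 and 7 are filled, of which 4 are members. The bottom panel has 1 filled point and the top one none. Of all features tested, 57.8% lie above 0 and 5.32% passed as higher in the comparison of the middle panel.

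Among genes that sense, import or store sterol, Apoe was the one that passed. None of the 7 tested genes of sterol sensing and SREBP processing passed in limma in any of the 3 comparisons, and none of 7 of uptake and endosomal release. Lrp8, an apolipoprotein E and reelin receptor, was above the floor in 23 of 36 progenitor-like, 13 of 29 interneuron-like and 92 of 147 excitatory neuron-like cells. Its difference between progenitor-like and interneuron-like cells was 0.68 ± 0.57 (limma adjusted p = 0.503). Npc2, which hands cholesterol out of the lysosome, gave 1.46 ± 0.45 (limma adjusted p = 0.0732), and Vldlr, a further receptor of lipoproteins and reelin, -0.92 ± 0.30 (0.0837).

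Apoe, the main lipid carrier secreted by glia, is 1 of 6 tested genes of storage, export and turnover. It was above the floor in 22 of 36 progenitor-like, 3 of 29 interneuron-like and 30 of 147 excitatory neuron-like cells. Progenitor-like cells were higher by 3.74 ± 0.46 than interneuron-like cells (limma adjusted p = 0.00283) and by 3.36 ± 0.46 than excitatory neuron-like cells (0.0123). Of 16 tested alternatives, the first call held in 14 and the second in 11. Neither held with intermediate progenitor-like cells alone or in the window of 3500 to 5500 genes. Median levels of Apoe were 529 TPM in radial glia-like and 2.36 TPM in intermediate progenitor-like cells. None of 8 fatty acid synthesis genes passed in the 3 comparisons, and their median between progenitor-like and interneuron-like cells was 0.31.

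From cell to cell the members' levels were weakly correlated. Over all 221 cells the 21 pairs had Pearson r of 0.00 to 0.36 with a median of 0.15, and 0.10 after adjustment for how many genes each cell had above the floor. Pairs of all 6903 features above the floor in at least 44 cells had a median of 0.02, with 0.19 at the 99th percentile. The highest pair was Hmgcs1 with Idi1, at 0.36 over all cells and 0.71 over the 36 progenitor-like cells. Over those 36 cells the 99th percentile of all pairs was 0.43. The same pair gave 0.21 over the excitatory neuron-like and 0.29 over the interneuron-like cells. Cells share pools, capture and depth, so these values describe the cells and carry no test.

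The genes most like the members' mean standardized level over all cells, by Pearson r among 6920 features, were Sc4mol (0.46), Fdps (0.40), Tspan13 (0.38), Sc5d (0.38), Fasn (0.36), Syt4 (0.35), Crip2 (0.35), Sri (0.35), Schip1 (0.35) and Dok5 (0.34). Of these 10, Sc4mol, Fdps and Sc5d are enzymes of the same route, and Fasn is fatty acid synthase. Within the 147 excitatory neuron-like cells alone the order changed, with Mtap1b, a microtubule-associated protein gene of growing axons, first at 0.46, Fdps at rank 12 and Sc4mol at rank 18.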

How the data were processed

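Expression was measured in 221 cells of 2 pools. Per the submitters' processing notes, the authors' tools were Bowtie2 2.2.6, Cufflinks 2.2.1 and TopHat2 2.0.14, the build was mm10, and the deposited values are TPM, which add up to 1000000 in each cell. No value is 0. The lowest value of a cell, shared by all features without signal, is called its floor (1.33 to 3.00 TPM), and a gene was taken as detected above it. Read counts were not used here, so depth is unknown. Intervals of shares cover counting error only, and those of log2 differences come from the spread between pool profiles. Genes above the floor numbered 2146 to 6727 per cell.

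The log2(TPM + 1) scale was used throughout. Cells were clustered by Ward linkage on 10 principal components of 60 markers above the floor (of 77 symbols), divided into 10 clusters. A cluster was named for its highest-scoring class where at least 3 of its markers were detected in 50% of the cells, with no other class leading its top 10 genes. An intermediate progenitor-like cluster of 8 cells had as many radial glia as intermediate progenitor markers among those 10.

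The pool was the replicate. Means per class and pool (6 profiles, at least 5 cells each, 3 residual degrees of freedom) were fitted with limma 3.58.1 in R 4.3.3 (trend and robust variances, two-sided) over the 10705 features above the floor in at least 10 cells, without markers and spike-ins, and adjusted by Benjamini-Hochberg. Pools pair the classes by origin, since each pool holds the same animals for all of them. Deviations of the pools were correlated by 0.0185 to 0.0691 between classes, and the block was left to an alternative.

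The members and gene lists were chosen with earlier results of these data known. Named were all members, the list genes that passed, up to 3 others with large differences per list, and the 10 genes most like the members. Hsd17b7 was not analysed here, and some list genes are not reported here. Alternatives changed the pseudocount, floor, mean, filter, normalization, clusters, class definitions, weights and pools.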

Additional observations from a re-analysis of the deposited data

How the results depend on the processing

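The limits are few pools, unknown read depth, values at the floor in many cells, and classes rebuilt from markers. Over 16 tested alternatives that kept both pools, of which 8 clusters gave the same classes, the progenitor-like minus interneuron-like difference of Sqle passed in 13, that of Fdft1 in 12, that of Hmgcs1 in 11 and that of Idi1 in 10, each positive in all 16. The ranges were 1.12 to 3.59 for Sqle, 0.42 to 2.70 for Fdft1, 1.17 to 3.15 for Hmgcs1 and 2.21 to 4.59 for Idi1. Fdft1 passed in 11 of 14 for interneuron-like minus excitatory neuron-like cells (-3.14 to -1.40). The alternatives on intermediate progenitor-like cells alone, the smaller excitatory cluster, the window of 3500 to 5500 genes, weights by cell number, single suffixes and left-out profiles were chosen after seeing the data. The one that adds an unnamed cluster closest to intermediate progenitors was not run, because no unnamed cluster was closest to that class. The cause of each change was not tested.

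For progenitor-like minus excitatory neuron-like cells the percent of features called (3.38) moved to 0.112 on log2 of the mean TPM, 2.30 with the stricter filter of 44 cells, 1.41 with quantile normalization, 0.299 with 12 clusters, 12.2 without progenitor-like cells with Neurod6, 1.69 with pool and suffix as units, 0.028 in the window and 8.18 with weights. It was 0 with cells classed by their highest marker score (731 features at an unadjusted limma p below 0.05) and with intermediate progenitor-like cells alone (1568). For progenitor-like minus interneuron-like cells (6.90) it was 2.13 on log2 of the mean, 4.38 with quantile normalization and 3.59 with 12 clusters. By marker score it was 1.35, with suffix units 3.71 and with intermediate progenitor-like cells alone 1.73. In the window it was 0.551 and with weights 4.51. For interneuron-like minus excitatory neuron-like cells (0.504) it was 0 on log2 of the mean (1246 unadjusted), 0.507 with the stricter filter, where fewer features were tested, 1.09 by marker score, 0.0747 without Neurod6 cells, 0.859 with the smaller excitatory cluster apart, 0 in the window (852 unadjusted) and 1.55 with weights. For radial glia-like minus intermediate progenitor-like cells (1.24) it was 0.056 on log2 of the mean, 0.618 with no filter, 1.26 with the stricter filter and 0.374 with weights.

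Quantile normalization moved the median difference of all features to -0.03, against 0.12, for progenitor-like minus interneuron-like cells, and 242 of its 469 calls were higher, against 569 of 739. The 4 members passed under it as well. For progenitor-like minus excitatory neuron-like cells 67.5% of its calls were higher, against 82.3%, for interneuron-like minus excitatory neuron-like cells 77.5%, against 53.7%, and for radial glia-like minus intermediate progenitor-like cells 74.3%, against 63.9%.

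Members called for progenitor-like minus interneuron-like cells (4) were 0 on log2 of the mean, with intermediate progenitor-like cells alone and in the window, and 2 with 12 clusters, by marker score and with suffix units. For interneuron-like minus excitatory neuron-like cells (1) they were 2 with the replicate block, with floor values at 0 TPM, by marker score, with the smaller excitatory cluster apart and with weights, and 0 on log2 of the mean, with 12 clusters, without Neurod6 cells and in the window. For progenitor-like minus excitatory neuron-like cells (0) the count without Neurod6 cells is not given, because the class is then 1 progenitor-like profile. The block, which pairs the pools, called 4.14, 7.70, 0.682 and 0.981 percent of features in the 4 comparisons in the order above and changed no member's call but that of Sqle between interneuron-like and excitatory neuron-like cells.

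Leaving out 1 profile at a time, the percent of features called ranged over 0 to 2.75 for progenitor-like minus excitatory neuron-like, 2.59 to 9.39 for progenitor-like minus interneuron-like, 0 to 1.01 for interneuron-like minus excitatory neuron-like and 0 to 2.77 for radial glia-like minus intermediate progenitor-like cells. It was 0 for progenitor-like minus excitatory neuron-like cells without either excitatory neuron-like profile (925 and 909 at an unadjusted limma p below 0.05), and 0 for the last comparison without intermediate progenitor-like pool 1 (1744). Members called ranged over 0 to 0, 2 to 4, 0 to 3 and 0 to 1. Without interneuron-like pool 2, Sqle (-2.76) and Idi1 (-3.03) also passed between interneuron-like and excitatory neuron-like cells. Without radial glia-like pool 1, Insig1 passed between radial glia-like and intermediate progenitor-like cells at 3.23, and without pool 2 it was -0.72.

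Signs turned in members that did not pass in either setting. For progenitor-like minus excitatory neuron-like cells Srebf2 was 0.00 with floor values at 0 TPM, Sqle -0.07 on log2 of the mean, Idi1 0.00 and Insig1 -0.10 by marker score, Fdft1 0.02, Dhcr7 0.26 and Srebf2 0.15 with radial glia-like cells alone, Fdft1 0.38 without Neurod6 cells, and Hmgcs1 -0.10 and Sqle -0.38 with intermediate progenitor-like cells alone. For progenitor-like minus interneuron-like cells Dhcr7 was 0.18 by marker score, 0.59 with radial glia-like cells alone and 0.02 without Neurod6 cells, where Srebf2 was -0.16. With a pool or a profile left out, Insig1 ran over -0.26 to 2.49 and Srebf2 over -0.47 to 0.30 for progenitor-like minus excitatory neuron-like cells, and Dhcr7 over -0.72 to 0.40 against interneuron-like cells and -0.76 to 0.09 for interneuron-like minus excitatory neuron-like cells.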
